A study of Mus musculus with 20 samples.

Results

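A set of 9 genes used as cell markers of the mouse cerebellum were followed across 20 whole brains. The members were taken from a list of symbols matched to the Ensembl identifiers of the deposited table, and 9 of 9 were found among its 19463 genes. Pcp2, Calb1 and Car8 mark Purkinje cells, Cbln1 and Cbln3 are made by granule cells, and Zic1, Zic2, Barhl2 and En2 are transcription factors of cerebellar neurons and their precursors. RNA came from male C57BL/6J mice in 4 groups of 5, namely wild-type (WT) and Katnal2 knock-out (KO) mice at 3 weeks (P21) and WT and KO mice at 10 weeks (P70). Katnal2 encodes a katanin-like protein that acts on microtubules. The KO allele began as the Katnal2tm1a(EUCOMM)Wtsi allele in embryonic stem cells, was converted to a floxed allele by mating with Protamine-Flp mice, and was deleted by exposing early embryos to HTNC, a Cre recombinase that enters cells. The line was backcrossed to C57BL/6J for more than 5 generations, and littermates of both genotypes shared cages. The deletion is therefore carried by every tissue and not by cerebellar neurons alone. The replicates are separate mice of 1 line, and no litter or sequencing batch was given in the labels. The study compared KO with WT brains at each age, and the 9 genes are described here for that comparison and for the change with age.

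Purkinje cells carry the output of the cerebellar cortex, and granule cells, which are far more numerous, send them excitatory input through parallel fibers. Granule cells release Cbln1, which binds presynaptic neurexins and helps to hold the parallel fiber synapse together, and Cbln3 is a partner that is secreted in complex with Cbln1. Granule cells are still being born and are maturing in the weeks after birth, and the cerebellum then reaches its adult form. In whole-brain RNA, fewer cells of a type and less RNA per cell cannot be told apart.

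The label was checked against other genes of the same cells. All 16 genes of a Purkinje cell list (among them Ppp1r17, Slc1a6 and Itpr1) and all 16 of a granule cell list (among them Gabra6, Neurod1 and Fat2) were detected in every mouse. Their summed normalized counts ranged from 56545 to 77447 and from 27299 to 36992, respectively. Cerebellar tissue was thus present in each sample. Several members are not limited to it. Calb1 is also found in forebrain neurons, and the Zic genes, Barhl2 and En2 in parts of the forebrain, midbrain or hindbrain, so their values sum over sources.

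The targeted gene was checked in every mouse before any comparison. Katnal2 values were 96, 94, 78, 81 and 96 in KO mice and 113, 100, 115, 99 and 108 in WT mice at P21, without overlap. At P70 the KO values lay between 95.1 and 125.5 and the WT values between 101.3 and 141.5, so the groups overlapped. The difference was a log2 fold change of -0.27 (SE 0.10, adjusted p = 1.00, limma) at P21 and -0.21 (SE 0.13, adjusted p = 1.00, limma) at P70. A deletion of part of a gene can leave RNA of the rest, so these values bear on the labels only in part. Normalized values summed to between 27310523 and 28423042 per mouse. The spacing of low values put the depth near 32400000 reads at P21 and 24200000 at P70 (medians), so age and depth moved together. The P70 WT and P70 KO mice numbered 5 stood apart from the others. Their median absolute deviation from their group was 0.32 and 0.38 on the log2 scale, against 0.09 to 0.17 in the other 18 mice. Results are therefore given with these mice and, where it matters, without every mouse numbered 5.

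In GRCm38 the Purkinje genes lie on chromosome 8 from 3623371 to 3625545 (Pcp2, minus strand), on chromosome 4 from 15881264 to 15908064 (Calb1, plus strand) and on chromosome 4 from 8143362 to 8239041 (Car8, minus strand). Cbln1 lies on chromosome 8 from 87468405 to 87472609 and Cbln3 on chromosome 14 from 55878913 to 55884392, both on the minus strand. Of the transcription factors, Zic1 lies on chromosome 9 from 91358058 to 91365810 (minus), Zic2 on chromosome 14 from 122475435 to 122479852 (plus), Barhl2 on chromosome 5 from 106452523 to 106458166 (minus) and En2 on chromosome 5 from 28165694 to 28172166 (plus). The library kit does not mark the strand. Reads of Pcp2 and the opposite gene Pet100, of Zic1 and Zic4, of Cbln1 and the noncoding gene Gm2694, and of En2 and Gm43610 can therefore not be told apart where their exons overlap. Car8 contains the processed pseudogene Gm11799. The values of these 5 genes are uncertain to that extent.

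RefSeq start-site windows of 300 bases on GRCm38.p6 were matched for 4 of the 9 members. The sequence before the start is shown for 3 of them, for Pcp2 as a marker of Purkinje cells, for Cbln3 because it passed for age in KO mice, and for Zic1 as a factor of granule cells. Each is written 5′ to 3′ on the minus strand and stops before the start given by RefSeq and by the gene annotation. Capitals mark AGGTCA, the letters bound by nuclear receptors such as Rora, a factor of Purkinje cells.
Pcp2, chr8:3625548-3625797: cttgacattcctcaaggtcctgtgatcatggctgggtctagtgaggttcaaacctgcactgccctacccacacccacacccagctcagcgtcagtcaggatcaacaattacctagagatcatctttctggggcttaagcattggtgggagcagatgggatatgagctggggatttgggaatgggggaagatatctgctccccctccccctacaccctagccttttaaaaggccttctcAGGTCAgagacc
Cbln3, chr14:55884393-55884506: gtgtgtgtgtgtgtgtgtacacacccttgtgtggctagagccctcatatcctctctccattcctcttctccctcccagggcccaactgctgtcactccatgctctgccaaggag
Zic1, chr9:91365811-91366018: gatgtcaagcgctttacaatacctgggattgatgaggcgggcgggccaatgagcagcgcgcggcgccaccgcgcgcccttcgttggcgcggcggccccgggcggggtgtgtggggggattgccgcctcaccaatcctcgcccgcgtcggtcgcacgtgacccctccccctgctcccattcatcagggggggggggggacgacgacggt
Within the 300-base windows, AGGTCA or its reverse complement TGACCT was found in 3 of the 4 windows of Pcp2, beginning 12, 87 and 26 bases before the respective start, of which the 2 windows at 12 and 87 overlap and share 1 match. It was not found in the windows of Cbln3, Zic1 or Barhl2. Of 32851 windows of the same length, 16.26% held it. The palindrome CAGCTG, a form of the E-box read by factors such as Neurod1, was in none of the 7 windows of the members and in 16.3% of all windows. These are matches of letters only.

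The 9 genes covered a wide range of levels. Per kilobase of principal transcript, Pcp2, a regulator of G proteins in Purkinje cells, had the highest normalized count in each group, and its range did not touch that of the next gene. This place rests on the length used, 470 bases for its principal transcript. Per kilobase of the union of its exons (1828 bases) Pcp2 was at 685 ± 51.5 in P21 WT brains and came sixth in each group, after Calb1, Cbln1, Car8, Cbln3 and Zic1. In P21 WT brains the level per kilobase of principal transcript was 2665 ± 200 for Pcp2 (SD, n = 5). It was 1559 ± 33.5 for Calb1, a calcium buffer, 1494 ± 178 for Cbln1 and 1297 ± 65.8 for Car8, a relative of carbonic anhydrase that binds the calcium channel encoded by Itpr1. Cbln3 at 1158 ± 114 and Zic1 at 997 ± 114 followed, and these 5 genes formed a chain in which each overlapped the next. Zic2, a zinc finger factor like Zic1, stood at 523 ± 46.6, En2, a homeobox gene of the midbrain and hindbrain, at 192 ± 23.5 and Barhl2, another homeobox gene, at 102 ± 12.9. None of these last 3 overlapped its neighbors in the order. The order in P21 KO brains was the same. At P70, in both genotypes, Car8 moved ahead of Calb1 and Cbln1, yet the 3 ranges again overlapped from each to the next, and the places of Cbln3, Zic1, Zic2, En2 and Barhl2 did not change.

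**Figure D1:**
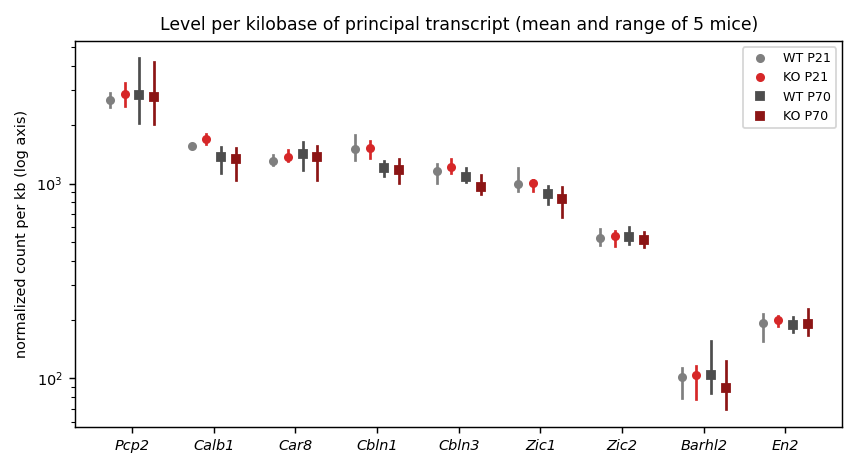
Normalized count per kilobase of principal transcript (log axis) for the 9 genes, with the mean (symbol) and the range of 5 mice (line) in each of the 4 groups. On this length Pcp2 is highest and Barhl2 lowest in every group, and the order changes between ages only among Calb1, Car8 and Cbln1.

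At P21, none of the 9 cerebellar genes passed the test between KO and WT brains, and differences were small. The mean was higher in KO brains for all 9 genes, by 0.01 to 0.11 on the log2 scale, with a median of 0.07 against a median of 0.00 over all genes tested. Over all genes 47.5% were lower in KO brains. The call rate over all genes was 0.0% of 17610 (limma, Benjamini-Hochberg), while 429 genes had an unadjusted p under 0.05, so the members are not set apart by the absence of calls. Without every mouse numbered 5, the differences of Zic1 and En2 turned to -0.01 and 0.00 (-0.002 before rounding), so the shared direction held for the other 7 genes. It also rested on single mice, since without P21 WT mouse 5 the differences of Cbln1, Zic1, Barhl2 and En2 were -0.02, -0.01, -0.06 and 0.00 (-0.001 before rounding).

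Calb1 was the member with the clearest difference at P21. Its normalized counts were 6742, 6587, 6696, 6407 and 6477 in WT mice and 6905, 7538, 7358, 6768 and 6963 in KO mice. Each KO mouse was above each WT mouse. The log2 fold change was 0.11 (SE 0.04, 95% interval 0.02 to 0.20), which is 7.9% higher. The limma p was 0.019 before and 1.00 after adjustment, and the exact permutation test gave p = 0.0079, the smallest value that 5 against 5 mice allow. Groups that did not overlap were seen in 0.46% of all genes. The difference did not survive correction over all genes.

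Among the other Purkinje genes at P21, Pcp2 ranged from 1164 to 1363 in WT and from 1176 to 1545 in KO mice (log2 fold change 0.10, SE 0.08), and Car8 from 4800 to 5381 and from 5036 to 5743 (0.07, SE 0.05). Both pairs of ranges overlapped. For the granule cell genes, the mean of Cbln1 was 4184 ± 498 in WT and 4248 ± 292 in KO mice, and that of Cbln3 was 5633 ± 552 and 5902 ± 397 (SD, n = 5). Those differences were smaller than the SD within a group. Zic1 (5591 ± 639 and 5621 ± 272), Zic2 (1276 ± 114 and 1309 ± 94.1), Barhl2 (235 ± 30.0 and 240 ± 35.8) and En2 (679 ± 83.2 and 709 ± 32.0) likewise differed by less than their SD in WT mice. The 95% intervals of the log2 difference reached from -0.13 to 0.16 for Zic1 and from -0.24 to 0.29 for Barhl2, so changes of that size are not excluded by these mice.

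Other genes of the same cells were examined at P21. Of the 16 further Purkinje genes 0 passed the test, and 14 had a log2 fold change above 0 with a median of 0.06. The smallest unadjusted p was that of Lhx5, a homeobox factor of Purkinje precursors, with 139 ± 13.7 in WT and 176 ± 10.6 in KO mice (log2 fold change 0.34, SE 0.09, adjusted p = 1.00, limma). Of the 16 granule genes 0 passed, and 9 were above 0 with a median of 0.03. Of the 6 Bergmann glia genes 0 passed, and Gdf10, which these glia secrete, had 1407 ± 87.1 in WT and 1518 ± 145 in KO mice. Genes of other regions were examined in the same fit, and 0 of them passed at P21. The 11 brainstem genes, at low normalised values such as 9.27 ± 6.23 in WT and 22.4 ± 11.8 in KO mice for Hoxb2, had log2 fold changes above 0 with a median of 0.81, and their summed level ranged from 39 to 344 in WT and from 172 to 516 in KO mice. The 5 choroid plexus genes were all above 0 with a median of 0.30 and sums of 12150 to 18083 and 13871 to 26448. The 7 olfactory bulb genes had a median of -0.52, with sums of 843 to 1730 and 816 to 1205, and Tbx21 was at 0 in at least 1 KO mouse. The 12 forebrain genes had a median of -0.05 with sums of 13184 to 14500 in WT and 12651 to 13831 in KO mice, the 10 thalamus and midbrain genes -0.06 with 4906 to 5366 and 4915 to 5359, and the 10 meninges genes 0.13 with 2837 to 3306 and 2615 to 4430. The part of tissue composition in the member values was not tested.

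At P70, again none of the 9 genes passed the test between KO and WT brains, and the background was 0.0% of 17613 genes (limma; 199 genes had an unadjusted p under 0.05). The direction was opposite to that at P21 for most members, with 8 of 9 means lower in KO brains, a median log2 fold change of -0.05 and a range from -0.20 to 0.03. Over all genes the median was 0.00, and 52.2% were lower. Without P70 KO mouse 5 the differences of Calb1 and Car8 were 0.03 and 0.04, and without P70 WT mouse 5 that of Pcp2 was 0.13.

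Cbln3 had the smallest p at P70. Its normalized counts were 4989, 5505, 5852, 4937 and 5104 in WT mice and 4323, 4979, 4352, 5383 and 4439 in KO mice. In 3 of 5 KO mice the value was below every WT mouse, and KO mouse 4 was above 3 of the WT mice, so the groups overlapped. The log2 fold change was -0.17 (SE 0.08, 95% interval -0.35 to 0.01), with p = 0.060 before and 1.00 after adjustment (limma), and the exact permutation test gave p = 0.063. Its partner Cbln1 was at 3378 ± 208 in WT and 3292 ± 431 in KO mice (log2 fold change -0.04, SE 0.09, 95% interval -0.25 to 0.16), and the 2 genes were not tested against each other. Barhl2 had the largest point estimate of the factors, -0.20, with an SE of 0.19 and an interval from -0.61 to 0.20.

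The remaining members showed no difference beyond their spread at P70. Calb1 was at 5789 ± 643 in WT and 5610 ± 752 in KO mice, Car8 at 5481 ± 747 and 5298 ± 832, Zic1 at 4937 ± 427 and 4671 ± 601 and Zic2 at 1302 ± 104 and 1258 ± 89.3 (SD, n = 5). Pcp2 had an SD of 428 and 397 around means of 1343 and 1300, and its interval reached from -0.52 to 0.44. En2 alone had a mean above WT in KO brains, 677 ± 85.1 against 663 ± 46.3. Of the further Purkinje genes 0 of 16 passed at P70 and 6 were above 0 (median -0.01), and of the further granule genes 0 of 16 passed and 4 were above 0 (median -0.05). Neurod1, a factor that drives granule cell differentiation, had the smallest p among the latter, with 1870 ± 232 in WT and 1620 ± 265 in KO mice (log2 fold change -0.21, SE 0.13, adjusted p = 1.00, limma).

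**Figure D2:**
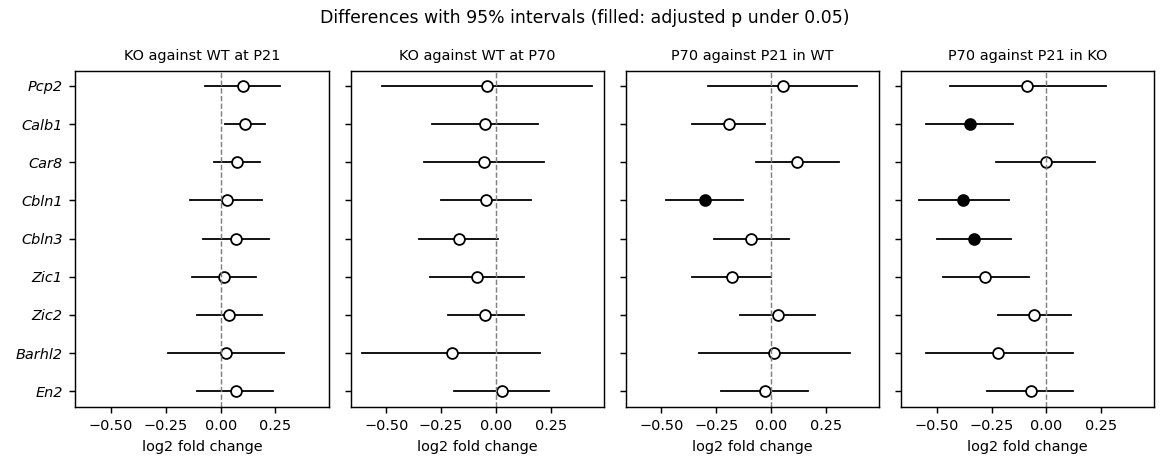
Log2 fold change of each gene (circle) with its 95% interval (line) in the 4 comparisons, where a filled circle marks an adjusted p under 0.05 over all genes tested (limma). No circle is filled between KO and WT brains at either age, 1 is filled for age in WT mice (Cbln1) and 3 are filled for age in KO mice (Calb1, Cbln1 and Cbln3).

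Between P21 and P70, Cbln1 fell in brain RNA of both genotypes, and Cbln3 and Calb1 fell in KO mice. In WT mice, Cbln1 alone of the 9 members passed the test, and 9.32% of 17630 genes passed it (4.7% lower). In KO mice Calb1, Cbln1 and Cbln3 passed, all lower at P70, where 8.32% of 17641 genes passed (4.53% lower). Mean log2 values of the 9 genes were lower at P70 for 5 in WT mice and for all 9 in KO mice. Over all genes 49.8% were lower in WT and 52.0% in KO mice. The median log2 fold change of the members was -0.03 and -0.22, respectively, against 0.00 and -0.01 over all genes. The 2 ages may have been processed apart, so age cannot be told apart from depth or batch in these comparisons.

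Cbln1 fell by 0.30 on the log2 scale in WT mice and by 0.38 in KO mice. At P21 its normalized counts were 4225, 4250, 4954, 3808 and 3685 in WT mice and 4275, 4621, 4251, 4293 and 3800 in KO mice. At P70 they were 3293, 3441, 3442, 3076 and 3638 in WT mice and 2853, 3484, 2813, 3757 and 3554 in KO mice. In each genotype every P70 mouse was below every P21 mouse, and such a separation downward was seen in 5.6% of genes in WT and 5.52% in KO mice. The SE was 0.08 in WT (adjusted p = 0.034, limma) and 0.09 in KO mice (adjusted p = 0.026, limma), which are reductions of 19.0% and 22.9%. The exact permutation test gave p = 0.0079 in each genotype. Without every mouse numbered 5 the log2 fold changes were -0.37 (adjusted p = 0.0073) and -0.44 (adjusted p = 0.0045). The calls were near the threshold, since leaving out 1 mouse ended them in 7 of 10 cases in WT (adjusted p 0.012 to 0.081) and in 6 of 10 in KO mice (0.0054 to 0.074), with the direction kept in each case.

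Cbln3 fell by 0.33 (SE 0.08) in KO mice, a reduction of 20.6% with an adjusted p of 0.019 (limma). Its values in KO mice were 6071, 6490, 5500, 5845 and 5604 at P21, and all 5 lay above the P70 values, which were between 4323 and 5383. In WT mice the P21 values were 6124, 5951, 6006, 4903 and 5179, and the P70 values from 4937 to 5852 lay within their range. The WT log2 fold change was -0.09 (SE 0.08, 95% interval -0.26 to 0.08, adjusted p = 0.52, limma). The call in KO mice was lost on leaving out KO mouse 1 or 2 at P21 or KO mouse 3 at P70 (adjusted p up to 0.061). A difference of the age change between the genotypes was tested directly. The interaction was -0.24 (SE 0.11, 95% interval -0.47 to -0.01) over 20 mice. It had an unadjusted p of 0.039 and an adjusted p of 1.00 (limma), so a different age change in KO and WT mice was not shown for Cbln3.

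Calb1 fell by 0.35 (SE 0.09) in KO mice, a reduction of 21.6% with an adjusted p of 0.033 (limma). The P70 KO values were 5853, 5463, 6459, 5851 and 4424, each below the lowest P21 KO value of 6768. In WT mice the P70 values were 5962, 6474, 6097, 5643 and 4771, and 4 of them were below the lowest P21 value of 6407. The WT log2 fold change was -0.19 (SE 0.08, adjusted p = 0.13, limma), and the exact permutation test gave p = 0.016. In both genotypes mouse 5 was the lowest at P70. Without every mouse numbered 5 the log2 fold change was -0.28 (adjusted p = 0.0068) in KO and -0.13 (adjusted p = 0.11) in WT mice. The KO call was lost in 7 of 10 cases when 1 mouse was left out (adjusted p up to 0.087), and the interaction was -0.16 (SE 0.12, adjusted p = 1.00, limma). Calb1 and Cbln1 also lost their calls in limma without the intensity trend (adjusted p 0.050 to 0.069), where Cbln3 in KO mice stayed at 0.041.

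Zic1, a factor kept on in mature granule cells, was near the threshold in KO mice. Its values in KO mice were 5750, 5841, 5160, 5752 and 5602 at P21 and 4526, 5076, 4617, 5355 and 3782 at P70. In 4 of 5 P70 mice the value was below every P21 mouse. The log2 fold change was -0.28 (SE 0.09) with an adjusted p of 0.076 (limma) and p = 0.016 by the exact permutation test. Without every mouse numbered 5 it was -0.20 with an adjusted p of 0.044 (limma). Zic1 also passed after quantile normalization (adjusted p = 0.049, limma) and after correction for transcript length and GC content (adjusted p = 0.018, limma). It did not pass in limma without the intensity trend (adjusted p = 0.12) or with the replicate number as a block (adjusted p = 0.10, limma). With 1 mouse left out the adjusted p ranged from 0.025 to 0.16 (limma). In WT mice the P21 values ran from 5147 to 6722 and the P70 values from 4408 to 5414, with a log2 fold change of -0.18 (SE 0.08, adjusted p = 0.21, limma).

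The other members did not pass the test for age. Zic2 differed little between the ages, with a log2 fold change of 0.03 (95% interval -0.14 to 0.20) in WT and -0.06 (-0.22 to 0.11) in KO mice. The corresponding values were -0.03 (-0.23 to 0.17) and -0.07 (-0.27 to 0.12) for En2. Car8 was at 4999 ± 254 at P21 and 5481 ± 747 at P70 in WT mice (log2 fold change 0.12, SE 0.09) and at 5257 ± 281 and 5298 ± 832 in KO mice (0.00, SE 0.10). The spread of Car8 at P70 over all 5 mice exceeded the difference in both genotypes. Without every mouse numbered 5 the log2 fold change of Car8 was 0.22 (adjusted p = 0.059, limma) in WT and 0.09 (adjusted p = 0.38, limma) in KO mice. Pcp2 (0.05, SE 0.16, in WT and -0.09, SE 0.16, in KO mice) and Barhl2 (0.01, SE 0.16, and -0.22, SE 0.15) had the widest errors. No member passed the interaction test, in which 0 of 17637 genes passed and 296 had an unadjusted p under 0.05 (limma). All 9 interaction estimates were below 0, from -0.24 to -0.04, and that of En2 was 0.03 without every mouse numbered 5. Over all genes 53.1% were below 0. The 9 estimates come from the same mice and are not independent.

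**Figure D3:**
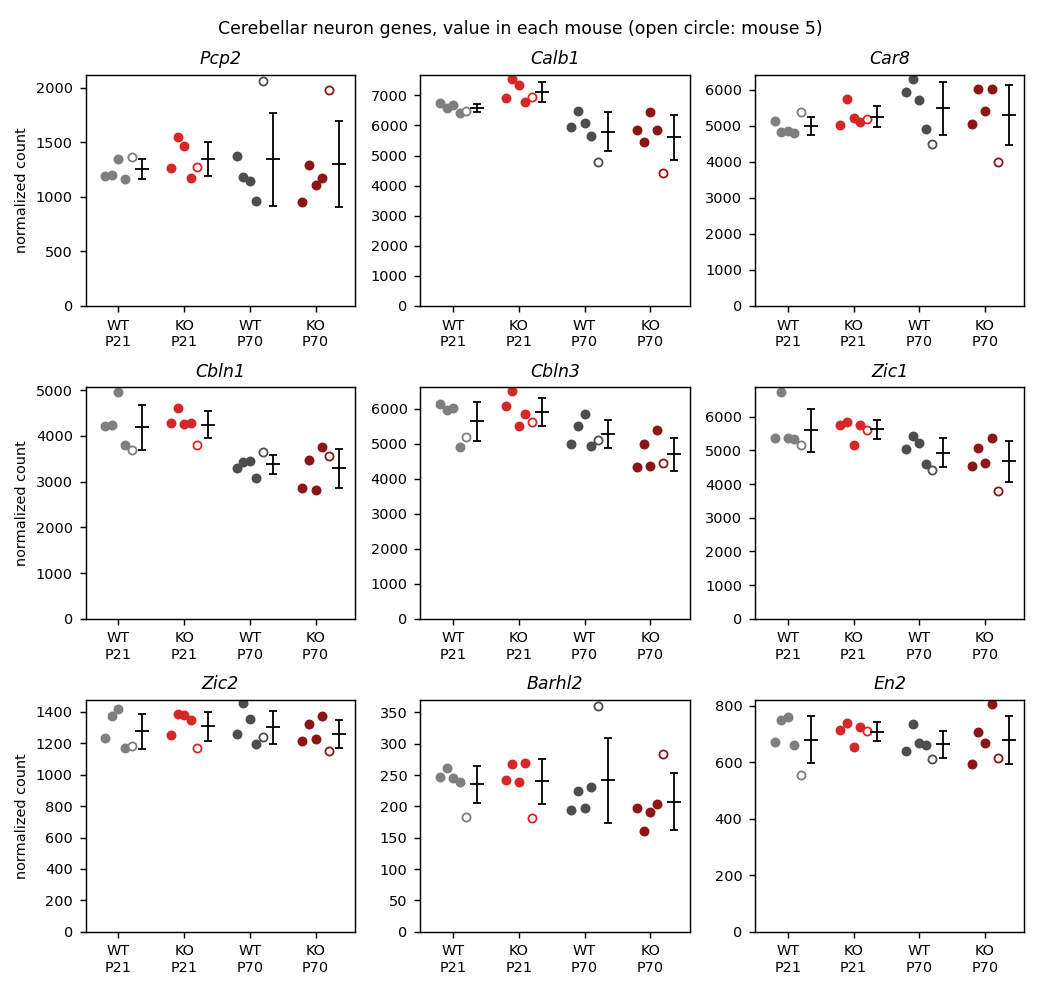
Normalized count of each of the 9 genes in every mouse, with the mean and SD of 5 mice beside the points, where open circles are the mice numbered 5 and each axis starts at 0. P70 values of Cbln1 lie below all P21 values of the same genotype, and at P70 mouse 5 is the highest of its group for Pcp2 and Barhl2 and the lowest for Calb1, Car8 and Zic1.

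Further granule and Purkinje genes were examined for age in the same fits. Of 16 granule genes, 3 fell in KO mice and 13 did not pass, with a median log2 fold change of -0.16. They were Neurod1, from 2292 ± 176 at P21 to 1620 ± 265 at P70 (log2 fold change -0.51, adjusted p = 0.013, limma), Fat2, a cadherin of granule cells, from 5245 ± 910 to 3747 ± 451 (-0.47, adjusted p = 0.041, limma), and Calb2, which encodes calretinin. In WT mice Calb2 alone fell, from 3766 ± 328 to 2833 ± 258 (-0.41, adjusted p = 0.0071, limma), and 15 did not pass, with a median of -0.07. None rose. Of 16 further Purkinje genes, Itpr1, the calcium release channel, rose in WT mice from 20030 ± 2640 to 27658 ± 4612 (0.46, SE 0.12, adjusted p = 0.035, limma) and the other 15 did not pass (median 0.07), while 0 passed in KO mice (median 0.02). Of 7 genes of cerebellin partners, among them the neurexins, Nrxn3 rose in WT mice from 5586 ± 327 to 6785 ± 628 (0.28, adjusted p = 0.032, limma). In KO mice 0 of the 7 passed.

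Of 9 tested genes of granule cell progenitors, Mki67 and Top2a, both expressed in dividing cells, fell and Ccnd1, a cyclin, rose in WT and in KO mice, and the other 6 did not pass in either. Mki67 went from 117 ± 22.3 to 63.8 ± 18.7 in WT mice and from 130 ± 12.7 to 56.3 ± 11.2 in KO mice (log2 fold change -0.89 and -1.22, adjusted p = 0.011 and 0.00060, limma). Dividing cells outside the cerebellum also express these genes. Of 6 Bergmann glia genes, Fabp7, a fatty acid binding protein of immature glia, and Gdf10 fell in each genotype and 4 did not pass, Gdf10 going from 1407 ± 87.1 to 1041 ± 129 in WT and from 1518 ± 145 to 942 ± 93.5 in KO mice (-0.44 and -0.69, adjusted p = 0.0075 and 0.00056, limma). Of 9 interneuron and unipolar brush cell genes 0 passed in WT mice, and in KO mice Eomes rose and Prkcd, Lgi2 and Slc6a5 fell, Slc6a5, the glycine transporter, from 1137 ± 100 to 675 ± 193 (-0.80, adjusted p = 0.016, limma). Whether the RNA of these genes came only from the cerebellum was not tested. Eomes, from 111 ± 21.8 to 204 ± 15.5 in KO mice (0.90, adjusted p = 0.0020, limma), is also on the olfactory bulb list, where the other 5 tested genes did not pass in KO mice and 0 of 6 passed in WT mice. No gene of these lists passed the interaction test. Of the brainstem genes 0 passed, with a median of -0.35 over 6 genes in WT and -1.21 over 10 genes in KO mice. Their summed level was 39 to 344 at P21 and 61 to 231 at P70 in WT mice, and 172 to 516 and 45 to 339 in KO mice. Of 12 forebrain genes 2 rose in each genotype and 10 did not pass. Of 5 choroid plexus genes, Kl (from 429 ± 77.1 to 690 ± 117, log2 fold change 0.69, adjusted p = 0.0088, limma) and Kcnj13 (from 64.6 ± 19.1 to 105 ± 23.7, 0.70, adjusted p = 0.047, limma) rose in WT mice, and 0 passed in KO mice. The part of such regional differences in the member values was not tested.

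The mice numbered 5 at P70 moved Purkinje genes in opposite directions. Pcp2 was 1372, 1182, 1140 and 959 in WT mice 1 to 4 and 2062 in mouse 5, and 951, 1287, 1111 and 1174 in KO mice 1 to 4 and 1975 in mouse 5. In mouse 5 it was thus 1.77 and 1.75 times the mean of the other 4. Barhl2 behaved alike, with 195, 225, 198 and 231 against 360 in WT mice and 198, 161, 192 and 204 against 284 in KO mice. Calb1 was at 0.79 and 0.75 times the mean of the others, Car8 at 0.79 and 0.71 times and Zic1 at 0.87 and 0.77 times. Cbln3 was at 0.96 and 0.93 times that mean, and Cbln1, at 3638 and 3554, was above that mean of 3313 in WT and of 3227 in KO mice. Zic2 was at 0.94 and 0.90 times and En2 at 0.90 and 0.89 times the mean of the others. In these mice the tenth of genes with the shortest transcripts (up to 1289 bases) deviated by a median of 0.34 (WT) and 0.35 (KO) on the log2 scale, and that with the longest (from 6582 bases) by -0.34 and -0.46. The principal transcript of Pcp2 has 470 bases, the shortest of the members, and that of Barhl2 has 2314 bases. Those of Calb1, Car8 and Zic1 have 4222, 3853 and 5606 bases, and that of Cbln3 has 4866 bases. Those of Cbln1, Zic2 and En2 have 2800, 2440 and 3539 bases. Whether transcript length accounts for the member values in these mice was not tested. At P21 the mice numbered 3 deviated in the same way by less, at 0.21 (WT) and 0.19 (KO) for the shortest and -0.21 and -0.18 for the longest transcripts. The P21 mice numbered 5 did not, and their Barhl2 values, 183 in WT and 181 in KO mice, were the lowest of their groups.

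**Figure D4:**
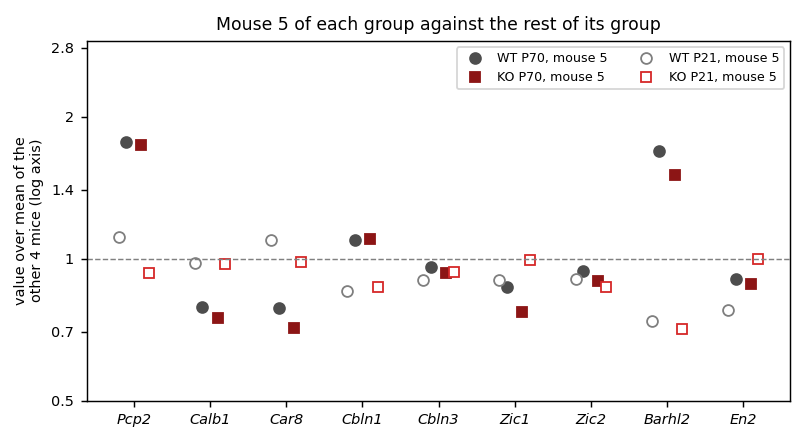
Value of mouse 5 divided by the mean of the other 4 mice of its group (log axis) for the 9 genes, with filled symbols for P70 and open symbols for P21. At P70, WT and KO mouse 5 lie at 1.77 and 1.75 for Pcp2 and at 0.79 and 0.71 for Car8, whereas both are near 1 for Cbln3.

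Without the mice numbered 5 the spread at P70 was smaller in both genotypes for Pcp2, Calb1, Car8, Zic1 and Barhl2, and larger in at least 1 genotype for Cbln1, Cbln3, Zic2 and En2. The coefficient of variation of Pcp2 at P70 went from 31.9% to 14.6% in WT and from 30.5% to 12.4% in KO mice, and that of Barhl2 from 28.1% to 8.65% and from 22.1% to 10.1%. For Cbln1 it went from 6.17% to 5.21% in WT and from 13.1% to 14.5% in KO mice, and for Cbln3 from 7.41% to 8.22% and from 9.97% to 10.8%. In KO mice 5 members then passed, all lower at P70, with Barhl2 at a log2 fold change of -0.43 (adjusted p = 0.011, limma) and Zic1 added to Calb1, Cbln1 and Cbln3. In WT mice Cbln1 remained the only call, and Barhl2 was at -0.23 (adjusted p = 0.13, limma). Over all genes, 9.69% of 17653 then passed with a lower value at P70 in KO and 6.99% in WT mice, and 19.4% and 15.0% passed in either direction (3417 and 2646 genes).

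The members were also compared with each other between mice of 1 group. Over the 36 pairs, deviations of log2 values from the group mean were correlated across 20 mice, with 100000 permutations of mice within groups and adjustment over the pairs. In all, 11 pairs passed, 10 positive and 1 negative, and 25 did not, and 7 passed without the mice numbered 5, all positive. The smallest r of a pair that passed was 0.62 in size, and 12 of the 36 pairs (33.3%) reached it, against 17.4% of all pairs of the 17637 genes. Without the mice numbered 5 it was 0.70, reached by 7 pairs (19.4%) and by 3.29% of all pairs. These shares are descriptions and were not tested against each other, and pairs that share a gene or mice are not independent. The permutations also treated mice of different groups as independent. Deviations of P70 WT and KO mice with the same number correlated at 0.075 to 0.705 over all genes, so the permutation p-values may be too small. The 5 pairs that passed in both were Cbln1 with Cbln3, Cbln1 with Zic2, and En2 with Cbln3, Zic1 and Zic2, so that granule cell genes and factors made up each of them. For Cbln1 with Zic2 (r = 0.64, adjusted permutation p = 0.024) the rank correlation did not pass over 20 mice (rho = 0.52, adjusted permutation p = 0.077). The count rests on few mice, since without P70 KO mouse 4 no pair passed, and without P70 KO mouse 5, P70 WT mouse 2, P70 WT mouse 4 or P70 WT mouse 5 it was 7, 6, 5 and 6.

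Cbln1 and Cbln3 had r = 0.72 and rho = 0.78 (permutation test, adjusted p = 0.024 and 0.016, 20 mice). Leaving out the 2 mice farthest from the median of Cbln1, P21 WT mouse 3 and P70 KO mouse 3, gave r = 0.71. Within P21 and within P70 r was 0.77 and 0.68 (10 mice each), and without the mice numbered 5 it was 0.83 (adjusted p = 0.027, permutation test). En2 followed Zic1 (r = 0.73, rho = 0.76, 0.65 at P21 and 0.79 at P70), Cbln3 (0.72, rho = 0.77, 0.65 and 0.79) and Zic2 (0.70, rho = 0.70, 0.59 and 0.82), each with an adjusted permutation p of 0.024 for r. Those 3 relations held without the 2 farthest mice (r = 0.72, 0.68 and 0.62).

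Relations of Purkinje genes changed with the mice and the age. Pcp2 and Car8 had r = -0.43 over 20 mice (adjusted permutation p = 0.26) and 0.78 without the mice numbered 5 (adjusted permutation p = 0.036), and within ages r was 0.68 at P21 and -0.55 at P70, or 0.85 at P70 without the mice numbered 5. Pcp2 and Calb1 had r = -0.68 (adjusted permutation p = 0.088), which was -0.04 without P70 KO mouse 5 and P70 WT mouse 5. Calb1 and Car8 had r = 0.79 (adjusted permutation p = 0.026), which was 0.46 without the same 2 mice, so the size of the relation rests on them. Car8 and Zic1 had r = 0.69 (adjusted permutation p = 0.024), but r was -0.26 within P21 and 0.97 within P70. The pooled relation did not hold at P21. The 1 negative pair, Car8 and Barhl2 (r = -0.69, adjusted permutation p = 0.024), was at -0.24 without the mice numbered 5.

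**Figure D5:**
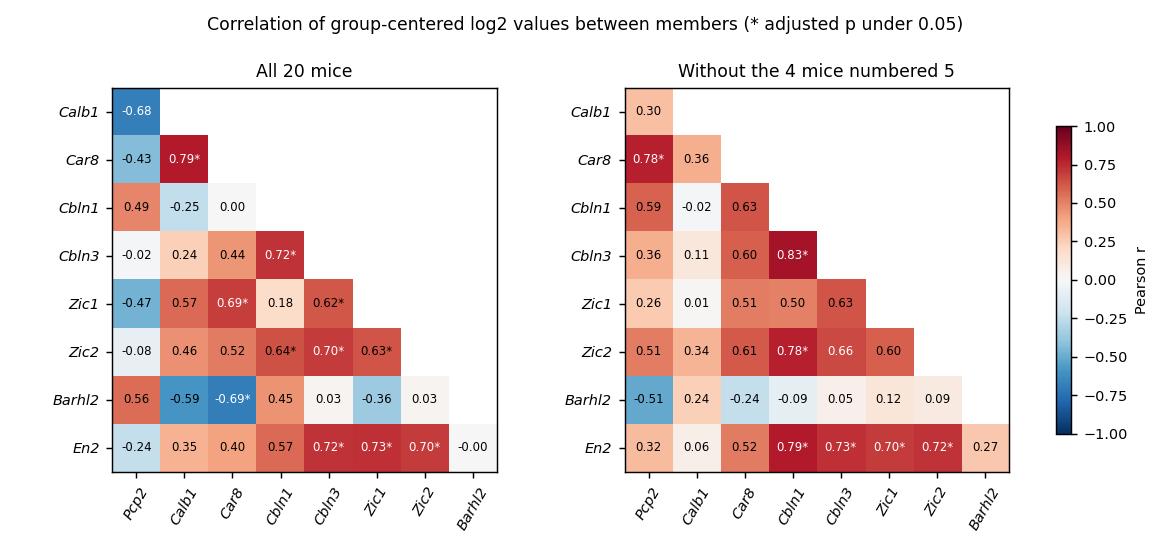
Pearson r of group-centered log2 values for each pair of the 9 genes over all 20 mice (left) and without the 4 mice numbered 5 (right), with an asterisk for an adjusted permutation p under 0.05. Cbln1 with Cbln3 (0.72 and 0.83) and En2 with Zic1 (0.73 and 0.70) are marked in both panels, whereas Pcp2 with Car8 goes from -0.43 to 0.78.

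The genes most like each member were named by the highest r of group-centered log2 values over 20 mice and 17637 genes, as a description. For Zic1 this was Neurod1 (r = 0.92, and 0.92 without the mice numbered 5). Car8 had Stk17b (0.95), Enpp4 (0.93) and Zic5 (0.92), and Cbln3 had Chn2 (0.80, or 0.85 without the mice numbered 5). Zic2 was closest to Fzd7 (0.81 and 0.90), and En2 to Reln (0.78), the secreted protein of granule cells, and Grm4 (0.77), a glutamate receptor of parallel fibers. For Calb1 it was Rap2c (0.92), for Cbln1 Maf1 (0.86) and for Barhl2 Dnm2 (0.88). Pcp2 was closest to Txn2 (0.97), Tmem234 (0.96) and Elob (0.96) over all mice and to Gpr37l1 (0.95), a receptor of Bergmann glia, without the mice numbered 5. Zic1 with Neurod1 and Zic2 with Fzd7 led in both settings, while the leading genes of Pcp2, Calb1, Car8, Cbln1, Cbln3, Barhl2 and En2 changed.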

How the data were processed

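Whole-brain RNA of 20 male mice (5 per group) was prepared with a TruSeq v2 kit. The authors quantified reads with Salmon 1.1.0 on GRCm38 with GC-bias correction, imported them with tximport and normalized them with DESeq2 (1.26.0 in the submitters' processing notes). The deposited signal values are these normalized counts, which carry gene-specific factors, so whole reads could not be recovered and depth was only estimated. As the design provided for normalized values, log2(value + 1) was tested with limma 3.58.1 in R 4.3.3 (lmFit, eBayes with trend). Genes entered a fit if their mean in its mice reached 10, and p-values were adjusted over all of them (Benjamini-Hochberg, threshold 0.05). Fold changes are on that scale. Each comparison used its own 10 mice and the interaction 20. Of 19463 genes, 19447 matched a symbol. Single values were also tested by a two-sided exact permutation test. Limma and the pair test were tested on simulated data. The members and lists were chosen with earlier results of these data known. The text names all 9 members, Katnal2, up to 2 called genes per direction and list (or the smallest p), and the 3 genes most like each member; Calb2 and Lgi2 are named to complete a count, and 1 gene of the rule is not reported here. Lists for thalamus and midbrain, isthmus patterning and meninges had 0 calls, except Slc22a6, Crabp2 (higher) and Col1a1 (lower) for age in the meninges list. Alternatives were no trend, another pseudocount, filters, quantile normalization, a fit of all mice, the replicate block and left-out mice. The length and GC correction and the exon union length were added after seeing the data.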

Additional observations from a re-analysis of the deposited data

Results flagged for a closer look

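In 4 of 36 groups of 5 mice, 1 value lay far from the rest of its group, where chance gives about 1 in 20 groups. Car8 was 5743.0 in P21 KO mouse 2, with the other KO mice between 5035.8 and 5216.7. Zic1 was 6722.2 in P21 WT mouse 2, with the others between 5147.2 and 5381.5. Barhl2 was the outlying gene in both other cases and in mouse 5 each time, at 183.3 in P21 WT mouse 5, below the others at 239.7 to 260.7, and at 359.5 in P70 WT mouse 5, above the others at 194.8 to 230.8.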

How the results depend on the processing

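Of 981 values of the members under other settings, 898 kept their direction and their side of the threshold, 29 lost and 8 gained a call, and 46 changed sign; no call between KO and WT brains appeared for a member in any of them. With the length and GC correction the number of genes called was 1 for KO against WT at P21, 2842 for age in WT and 2808 for age in KO mice, and without every mouse numbered 5 it was 1 for KO against WT at P70, 2646 for age in WT and 3417 for age in KO mice. Members called for age in WT mice were 0 in limma without the trend, and in KO mice 1 without the trend and 5 without every mouse numbered 5, and 7 pairs passed without these mice. The numbers were not taken to pair the mice, which are different animals, since not every pair with the same number correlated over 0.1. Deviations of such pairs correlated at -0.01 to 0.26 at P21 and 0.07 to 0.71 at P70 between genotypes, where 4 of 5 P70 pairs were over 0.1, and at -0.10 to 0.16 in WT and -0.12 to 0.16 in KO mice between ages; 7 of 10 P70 mice correlated best with their own number. The replicate block gave 913 genes and 1 member (Cbln3) for age in KO mice and 0 members in WT mice, and with the length and GC correction added 2109 genes and 4 members in KO and 2241 genes and 1 member in WT mice. The cause of these differences was not tested.

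The sign of the following values changed. Without every mouse numbered 5 the log2 fold change was -0.084 for Pcp2 and -0.23 for Barhl2 for age in WT mice, 0.090 for Car8 for age in KO mice, -0.014 for Zic1 and -0.0020 for En2 for KO against WT at P21, and 0.032 for En2 in the interaction. With the length and GC correction, alone or with the replicate block, it was 0.050 for Car8 for age in KO mice and -0.067 for Zic2 and -0.034 for Barhl2 for age in WT mice.

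Leaving out 1 mouse gave 0 to 1 genes for KO against WT at P21 (1 without KO mouse 4 or WT mouse 3), 912 (without P21 WT mouse 4) to 3000 (without P70 WT mouse 5) for age in WT and 896 (without P21 KO mouse 4) to 3759 (without P70 KO mouse 5) for age in KO mice, where it was also 943 and 957 without P21 KO mouse 1 and mouse 2. Members called ranged from 0 to 1 in WT and from 0 (without P21 KO mouse 1 or 2) to 4 in KO mice, and pairs called from 0 to 13. For KO against WT at P21 the ranges were -0.017 to 0.090 for Cbln1, -0.015 to 0.081 for Zic1, -0.062 to 0.12 for Barhl2 and -0.0014 to 0.11 for En2. At P70 they were -0.20 to 0.13 for Pcp2, -0.12 to 0.034 for Calb1, -0.12 to 0.043 for Car8, -0.10 to 0.0092 for Cbln1 and -0.039 to 0.072 for En2. For age in WT mice they were -0.12 to 0.16 for Pcp2, -0.012 to 0.070 for Zic2, -0.14 to 0.080 for Barhl2 and -0.10 to 0.015 for En2, for age in KO mice -0.25 to 0.013 for Pcp2 and -0.052 to 0.094 for Car8, and for the interaction -0.30 to 0.027 for Pcp2 and -0.11 to 0.027 for En2. Depth is known only approximately, and 5 mice per group limit the precision.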
